A study of Mus musculus with 11 samples.

Results

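Calmodulin is the small calcium-binding protein through which a rise in intracellular calcium reaches many enzymes. When loaded with calcium it binds CaMKK2, a kinase that phosphorylates and so raises the activity of the downstream kinases CaMKI (of which Camk1d encodes 1 form) and CaMKIV (Camk4), and it also binds the multimeric CaMKII holoenzyme, built from subunits encoded by Camk2a, Camk2b, Camk2d and Camk2g. In the brain CaMKII is best known for its part in synaptic plasticity and CaMKIV for the phosphorylation of CREB in the nucleus. The 9 genes described here, Calm2, Calm3, Camkk2, Camk1d, Camk4, Camk2a, Camk2b, Camk2d and Camk2g, were taken by symbol from the 25827 genes of the deposited matrices, and all 9 were found.

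Their transcripts were measured by single-nucleus RNA sequencing of nuclei sorted by the DNA dye Hoechst from the cerebellum and brainstem of 1 hemisphere together with the upper cervical spinal cord. The 11 samples came from male mice aged 8 to 12 weeks in which both alleles of Il12rb2, the gene for a subunit of the IL-12 receptor, were flanked by loxP sites. In Nestin Cre/+ Il12rb2 fl/fl mice the recombinase is driven by Nestin, a gene of neural stem and precursor cells, from which neurons and macroglia but not microglia descend, whereas Il12rb2 fl/fl mice carry no recombinase. Experimental autoimmune encephalomyelitis (EAE), a model of multiple sclerosis, was induced with the myelin peptide MOG35-55 in complete Freund's adjuvant and pertussis toxin, and tissue was taken at day 10. There were 4 fl EAE samples, 4 NestinCre EAE samples, 2 fl naive samples and 1 NestinCre naive sample, the naive mice being non-immunized. Replicates 1 to 3 of both EAE groups were sequenced in run 1, replicate 4 of both and fl naive replicate 2 in run 2, and the other naive samples in run 3.

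Total UMIs (distinct molecules) per sample lay between 40761007 and 86063464, and 159228 nuclei with a median of 2372 UMIs remained after the limits on genes, mitochondrial reads and doublets. Of these, 147355 fell in clusters that could be named from markers, and the 12 neuron and glia classes with at least 10 nuclei in each sample were described by level: granule cells (106497 nuclei), mature oligodendrocytes (21059), molecular layer interneurons (7530), other inhibitory neurons (3049), microglia (2235), astrocytes (1223), oligodendrocyte progenitors (895), other excitatory neurons (879), Bergmann glia (682), Purkinje cells (471), Golgi cells (439) and unipolar brush cells (367). The comparisons of groups also covered 3 other clusters with at least 10 nuclei in each EAE sample: infiltrating phagocytes (511 nuclei, tested between the EAE groups alone, since 2 naive samples held 7 and 4), leptomeningeal cells or fibroblasts (222), and a cluster of 610 nuclei that passed the endothelial markers but was led by Flt1 and Slco1a4 of endothelium together with Ptprc and Bank1 of leukocytes, and is called the Flt1 and Ptprc cluster here. UMIs were summed per sample and class and are given as CPM, the gene's UMIs scaled to a fixed total per sample and class, which has no length adjustment, so levels are ordered between classes within 1 gene and not between genes. Pairs of libraries shared 0.358 to 0.692% of their barcodes. The Purkinje class of fl EAE replicate 4 stood apart, with 105 nuclei of a median of 3066 UMIs beside 33 to 52 nuclei with medians of 11580 to 12756 UMIs in the other fl EAE samples, so its Purkinje values are also left out below where that matters. Il12rb2 itself was counted at 11.0 to 16.9 CPM over all kept nuclei in the fl EAE samples and at 8.03 to 16.9 CPM in the NestinCre EAE samples, and since 3′ tags and intronic reads can lie outside the deleted part, these values do not check the deletion.

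Calm2 (chr17:87740829-87754363, minus strand, GRCm39) and Calm3 (chr7:16649290-16658156, minus strand) encode the same protein from different DNA, and their counts are separate only where the bases differ. Over the 450 coding bases of each, stop codon included, 78 bases and 76 of 150 codons differed, no residue differed, and the longest identical run was 17 bases. The first 120 coding bases of each, from the GENCODE vM39 transcripts on GRCm39, are shown to make that visible, with the 18 differing bases in capitals:
Calm2: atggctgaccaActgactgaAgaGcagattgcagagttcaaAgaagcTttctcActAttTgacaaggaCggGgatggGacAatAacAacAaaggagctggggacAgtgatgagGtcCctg
Calm3: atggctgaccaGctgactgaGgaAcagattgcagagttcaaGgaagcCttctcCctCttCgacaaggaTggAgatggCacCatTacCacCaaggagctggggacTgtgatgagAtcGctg

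The kinase genes are longer. Camk1d spans 421.1 kb (chr2:5298268-5719375, minus strand), Camk4 260.8 kb on chromosome 18, Camk2d 250.0 kb (chr3:126389945-126639982, plus strand), Camk2b 100.6 kb (chr11:5915791-6016362, minus strand), Camk2a 62.8 kb on chromosome 18, Camk2g 59.6 kb (chr14:20784942-20844541, minus strand) and Camkk2 48.5 kb (chr5:122869233-122917739, minus strand). The study's methods state that intronic reads were counted; whether this held alike in all 3 runs was not checked, and long genes with much intron would be the most touched. With introns counted, 7 other listed features on the same strand inside Camk2d can share or take its reads. On the opposite strand, 1 feature overlapped Camkk2 and Ykt6 overlapped Camk2b. No listed feature overlapped the other 6 members.

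Each kinase gene had its own pattern over the classes in the fl EAE samples, and the calmodulin genes had flatter ones. The classes are clusters made from all genes, so these levels are a description with no test.

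**Figure D1:**
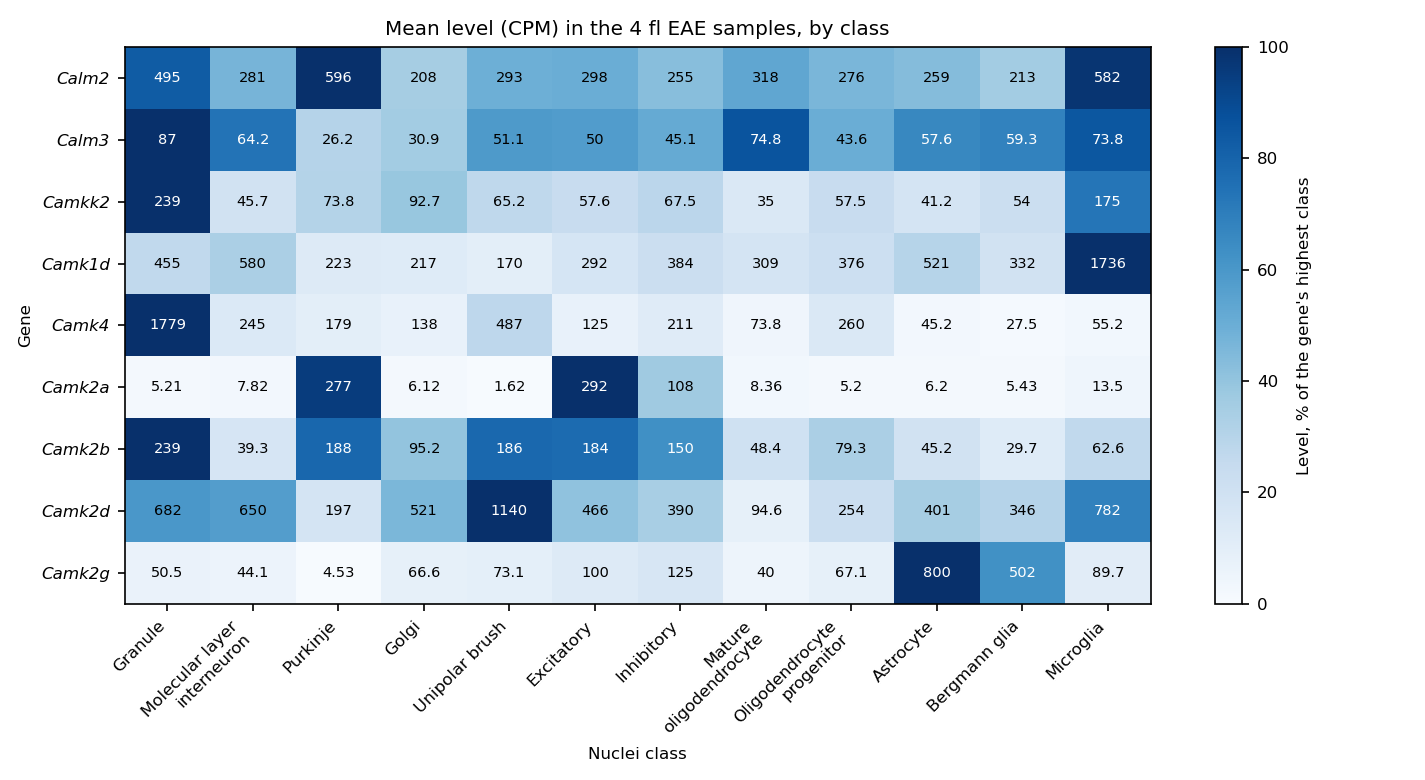
Mean level in CPM of the 9 genes (rows) in 12 nuclei classes (columns) over the 4 fl EAE samples, with the colour giving each level as percent of that gene's highest class. Camk4 was highest in granule cells, Camk1d in microglia, Camk2g in astrocytes and Bergmann glia, and Camk2a in excitatory neurons and Purkinje cells.

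Calm2 ran from 208 ± 15.9 CPM in Golgi cells to 596 ± 76.9 CPM in Purkinje cells (mean ± SD, n = 4, here and for the other class levels). Microglia (582 ± 92.4) and granule cells (495 ± 97.4) came next, and every neighbouring pair of classes in the order overlapped in its sample ranges. Calm3 ran from 26.2 ± 3.03 CPM in Purkinje cells to 87.0 ± 15.4 CPM in granule cells, again with every neighbouring pair overlapping. Purkinje cells thus stood first for Calm2 and last for Calm3, and Calm2 made up 95.7% ± 0.626 of the Calm2 and Calm3 UMIs there, against 77.3% ± 7.03 in Bergmann glia and 81.3% ± 1.45 in molecular layer interneurons. Without fl EAE replicate 4 Purkinje cells were still first for Calm2 (632 ± 27.0 CPM, n = 3) and last for Calm3 (26.5 ± 3.63). Leaving out this sample also removed its granule cells, 11514 nuclei with the lowest Calm2 level of the 4 samples (349 CPM). Granule cells then no longer overlapped the next class, mature oligodendrocytes, for Calm2 (532.6 to 555.9 against 326.8 to 363.5 CPM). The same held for Calm3 (88.7 to 103.5 against 79.1 to 85.8 CPM).

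Camkk2, the upstream kinase, was highest in granule cells at 239 ± 13.2 CPM, followed by microglia at 175 ± 34.1 CPM, and the sample ranges of these classes overlapped neither each other nor the third class, Golgi cells (92.7 ± 19.0). Mature oligodendrocytes had the lowest level, 35.0 ± 6.15 CPM. From Golgi cells down to mature oligodendrocytes every neighbouring pair overlapped.

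Camk1d was highest in microglia, at 1736 ± 219 CPM, and its range there (1537 to 2030) lay above that of the next class, molecular layer interneurons (580 ± 80.7, range 501 to 692). Astrocytes (521 ± 65.4) and granule cells (455 ± 107) followed, and the remaining classes declined in overlapping steps to 170 ± 41.2 CPM in unipolar brush cells. Pooled over the fl EAE samples, Camk1d was at 2136 CPM in infiltrating phagocytes (318 Camk1d UMIs) and at 2038 CPM in border macrophages (262 UMIs), of which fl EAE replicate 1 held 7 nuclei, too few for testing.

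Camk4 was highest in granule cells. The 4 fl EAE samples had 1734, 1733, 1683 and 1965 CPM there, and unipolar brush cells, second in order, had 578, 398, 529 and 444 CPM. Neither class overlapped its neighbour, and Bergmann glia were lowest at 27.5 ± 14.0 CPM. Because free RNA of the most frequent class can enter other nuclei, each class was set beside the summed level of 6 granule markers (Gabra6, Fat2, Cbln3, Neurod1, Etv1 and Slc17a7), both as percent of granule cells. In microglia Camk4 stood at 3.10% and the markers at 22.0%, in mature oligodendrocytes at 4.15% and 19.0%, in astrocytes at 2.54% and 14.0%, and in Bergmann glia at 1.55% and 14.0%. In unipolar brush cells Camk4 stood at 27.4% and the markers at 24.4%, and in molecular layer interneurons at 13.8% and 9.13%. In Purkinje cells Camk4 stood at 10.1% and the markers at 5.41%, and without fl EAE replicate 4, whose Purkinje nuclei had 353 CPM of the markers against 89.3 to 109.8 CPM in the other fl EAE samples, at 8.53% and 3.33%. The Camk4 percentage was thus below the marker percentage in the glial classes, including oligodendrocyte progenitors (14.6% and 24.4%), and above it in the neuron classes outside granule cells. Camk4 in mature oligodendrocytes ranged over the EAE samples from 42.7 CPM in fl EAE replicate 1 to 247 CPM in NestinCre EAE replicate 2.

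**Figure D2:**
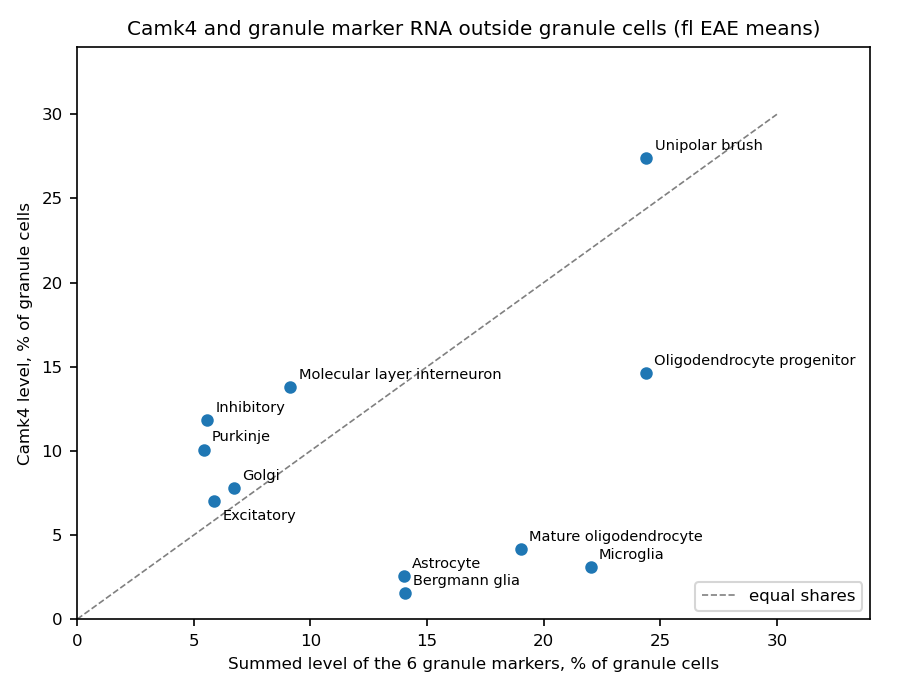
Camk4 level (y axis) against the summed level of 6 granule cell markers (x axis), both in percent of the granule cell level, 1 point per class outside granule cells, as means of the 4 fl EAE samples. The dashed line marks equal percentages; neuron classes lie above it and glial classes below it.

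The Camk2 genes divided the classes between them. Camk2a, the alpha subunit of forebrain excitatory synapses, was found at 292 ± 88.5 CPM in excitatory neurons and 277 ± 42.9 CPM in Purkinje cells, which overlapped, at 108 ± 9.97 CPM in inhibitory neurons, and at 13.5 CPM or less in the other 9 classes, granule cells included (5.21 ± 1.58). Camk2b, the beta subunit, which binds actin, was highest in granule cells (239 ± 20.7), with Purkinje cells (188 ± 38.1), unipolar brush cells (186 ± 16.3) and excitatory neurons (184 ± 36.2) overlapping in turn, and lowest in Bergmann glia (29.7 ± 14.6).

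Camk2d, the delta subunit, was highest in unipolar brush cells at 1140 ± 92.1 CPM, with no overlap with the next class. Microglia (782 ± 169), granule cells (682 ± 32.9) and molecular layer interneurons (650 ± 17.2) followed and overlapped in turn, and mature oligodendrocytes were lowest at 94.6 ± 17.1 CPM. Camk2g, the gamma subunit, was highest in astrocytes (800.5 ± 47.4) and then in Bergmann glia (502 ± 82.9), which overlapped neither astrocytes nor the third class, inhibitory neurons (125 ± 5.84), and it was lowest in Purkinje cells (4.53 ± 3.85, or 2.71 ± 1.54 without fl EAE replicate 4, n = 3). In the 38 clusters left without a name, which held 7.46% of kept nuclei, pooled levels ran from 243 to 1129 CPM for Camk2d and from 45.5 to 188 CPM for Camk2g, so none reached the astrocyte level of Camk2g. Camk2a ran from 3.59 to 407 CPM and Camk2b from 75.0 to 269.6 CPM there. For these genes some unnamed clusters thus lay above the mean of the highest named class.

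As shares of the UMIs of the 4 Camk2 genes within a class, which need no scaling between libraries, Camk2d made up 87.7% ± 1.80 in molecular layer interneurons, 82.0% ± 4.5 in microglia, 81.3% ± 3.34 in unipolar brush cells and 69.8% ± 0.573 in granule cells. In Purkinje cells Camk2a was the largest share at 41.5% ± 3.86, and in astrocytes and Bergmann glia Camk2g was, at 64.0% ± 3.20 and 57.0% ± 3.33. These shares are of molecules counted and are not adjusted for gene length.

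Over the 12 classes the genes whose fl EAE means (log2 of CPM + 1) followed each member most closely, among genes of at least 20 CPM in some class, were Tmem11 (Pearson r = 0.885) and Ubash3b (0.873) for Calm2, Tle5 (0.960) and Ccdc85b (0.95) for Calm3, Celf1 (0.875) and Pip5k1c (0.845) for Camkk2, and Nfkbil1 (0.935) and Srrd (0.932) for Camk1d. For Camk4 they were Xkr7 (0.941) and Adcy1 (0.938), which encodes a calmodulin-dependent adenylyl cyclase. The corresponding genes were Bcl11a (0.973) and Scn4b (0.965) for Camk2a, Rasgef1a (0.951) and Cdh18 (0.929) for Camk2b, Glud1 (0.953) and Por (0.938) for Camk2g, and Gm43009 (0.960) and B930086L07Rik (0.921) for Camk2d. Gm43009 (chr3:126438110-126441675) lies inside Camk2d on the same strand. The 12 points of each correlation share libraries and differ in depth.

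The comparison the study was built on was that of NestinCre EAE with fl EAE samples. In this comparison 3 of the 109 tested pairs of a member and a class were called. In microglia Camk2d was higher and Calm2 lower in the NestinCre samples. The other call, Camk4 higher in the Flt1 and Ptprc cluster, rests on 14 UMIs in the fl EAE samples. That pair passed the filter on low counts through the group where it is high, so its values are a description. No pair was called in a neuron, astrocyte, Bergmann glia, oligodendrocyte, phagocyte or leptomeningeal class. In simulated data with known changes, few 2-fold changes were recovered in the phagocyte (8.64%) and leptomeningeal (3.9%) classes. In the 12 neuron and glia classes, 10% (Bergmann glia) to 63.64% (inhibitory neurons) of 1.5-fold changes were recovered. Granule cells had 47.96% and microglia 20%, and 7.61% of the simulated calls in microglia were false. A lack of calls in any of these classes therefore does not show equal levels. Over all genes and classes 1012 of 101693 pairs were called (0.995%, edgeR quasi-likelihood test with Benjamini-Hochberg adjustment within a class, threshold 0.05), or 795 of 99948 (0.795%) without the Flt1 and Ptprc cluster, and in microglia 388 of 7000 genes were (5.54%), against 2 of the 8 members tested there.

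In microglia, Camk2d was at 708, 578, 930.4 and 912 CPM in the fl EAE samples and at 1382, 1216, 1273 and 1074 CPM in the NestinCre EAE samples. Every NestinCre EAE sample lay above every fl EAE sample, and above the fl naive (818 and 733 CPM) and NestinCre naive (647 CPM) samples. The log2 fold change was 0.63 (SE 0.16, edgeR adjusted p = 0.0174). Without fl EAE replicate 1 or fl EAE replicate 2 it was 0.60 and 0.53, with adjusted p of 0.082 and 0.0892, and no longer called. The 7 features inside Camk2d had 92 UMIs in fl EAE and 390 in NestinCre EAE microglia, beside 902 and 2814 Camk2d UMIs.

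Calm2 in microglia was at 621, 690.4, 535 and 481 CPM in the fl EAE samples and at 342, 430.2, 354 and 403 CPM in the NestinCre EAE samples. The groups did not overlap, and the fl naive (495 and 600.1 CPM) and NestinCre naive (604 CPM) samples lay above all 4 NestinCre EAE samples. The log2 fold change was -0.61 (SE 0.15, edgeR adjusted p = 0.0167). The call was lost without fl EAE replicate 1 (adjusted p = 0.079), fl EAE replicate 2 (0.104), NestinCre EAE replicate 1 (0.0617) or NestinCre EAE replicate 3 (0.0737), at log2 fold changes of -0.56, -0.50, -0.55 and -0.54. Calm3, which encodes the same protein, had 73.8 ± 19.1 CPM in fl EAE microglia and a log2 fold change of -0.05 (SE 0.27, adjusted p = 0.957).

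Camk1d, the member highest in microglia, was at 1537, 1605, 1773 and 2030 CPM in the fl EAE samples and at 2334, 2213, 2373 and 2233 CPM in the NestinCre EAE samples. These groups did not overlap either, but the log2 fold change of 0.39 (SE 0.13) had an adjusted p of 0.0855 by the same edgeR test and was not called. It passed in run 1 alone (0.52, adjusted p = 0.0305) and without fl EAE replicate 4 (0.52, 0.0305) or NestinCre EAE replicate 4 (0.52, 0.0308). These fits rest on the same run 1 samples, so they are not separate checks. The naive samples had 1699 and 1401 CPM (fl) and 1410 CPM (NestinCre). The log2 fold changes of Camkk2, Camk4, Camk2b and Camk2g in microglia lay between -0.16 and 0.32, all with adjusted p of at least 0.633, and Camk2a was too low there to be tested.

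**Figure D3:**
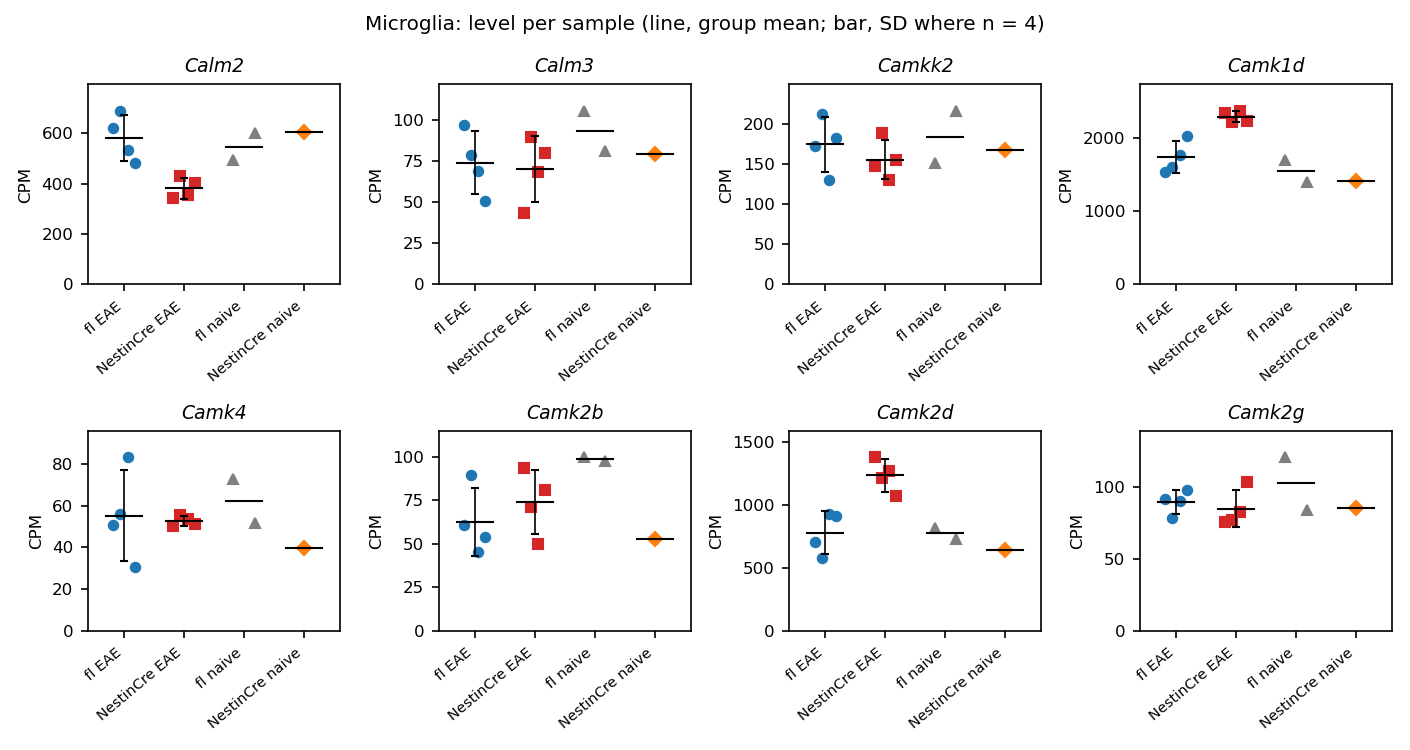
Level in microglia (CPM) of the 8 members tested in that class, 1 point per sample, in the 4 groups, with lines for group means and bars for the SD of the groups of 4. NestinCre EAE samples lie above fl EAE samples for Camk2d and Camk1d and below them for Calm2.

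The microglia of the EAE groups also differed in other measures. Summed over 8 markers of infiltrating phagocytes (Ccr2, Ly6c2, Lyz2, Arg1, Chil3, Plac8, F10 and Itgal), the level in the microglia class was 21.8 CPM (11.2 to 28.6) in fl EAE and 137 CPM (51.3 to 252) in NestinCre EAE samples. Ly6c2, F10 and Itgal had 0 UMIs in fl EAE and 14, 7 and 68 UMIs in NestinCre EAE samples. Chil3 ranged from 0 to 55.3 CPM over the NestinCre EAE samples. Arg1 alone had a lower mean in NestinCre EAE (2.60 CPM) than in fl EAE samples (4.24 CPM). The sum of 6 microglia markers (P2ry12, Tmem119, Sall1, Cx3cr1, Siglech and Csf1r) was 3730 CPM (3465 to 4007) in fl EAE and 2901 CPM (2512 to 3313) in NestinCre EAE samples, and among them Cx3cr1 was at 926 CPM (861 to 1027) and 615 CPM (461 to 828), Siglech at 982 CPM (823 to 1156) and 606 CPM (370 to 768), and P2ry12 at 874 CPM (671 to 966) and 774 CPM (675 to 843). P2ry12 overlapped between the groups, as did Csf1r (635 and 630 CPM), Sall1 (237 and 214 CPM) and Tmem119 (76.4 and 61.7 CPM). The markers of dividing cells and neuroblasts were at 41.1 CPM (10.2 to 67.8) and 160 CPM (114 to 236). Of 27 marker lists summed in this class, 3 did not overlap between the EAE groups: those of infiltrating phagocytes, of microglia and of dividing cells and neuroblasts. Bergmann glia markers, at 318 CPM (269 to 428) in fl EAE and 474 CPM (409 to 577) in NestinCre EAE samples, and leptomeningeal markers, at 46.6 CPM (35.7 to 56.0) and 25.4 CPM (18.6 to 37.4), overlapped at the edges of their ranges. The infiltrating phagocyte class held 13 to 29 nuclei in each fl EAE sample and 44 to 143 in each NestinCre EAE sample, and the microglia class 103 to 207 and 173 to 408. In that phagocyte class Calm2 was at 249, 546, 582 and 249.8 CPM in the fl EAE samples and at 329, 472, 308 and 286 CPM in the NestinCre EAE samples, with a log2 fold change of -0.21 (SE 0.33, edgeR adjusted p = 0.913). Camk2d was at 1368, 491, 992 and 1149 CPM and at 1263, 1157, 943 and 729.6 CPM there, with a log2 fold change of 0.00 (SE 0.35, adjusted p = 0.999). Both genes overlapped between the groups, on 6 to 27 Calm2 UMIs and 9 to 69 Camk2d UMIs per fl EAE sample, and 0 of 2163 genes were called in that class. As 8.64% of simulated 2-fold changes were recovered there, the lack of calls does not show equal levels. Border macrophages, the myeloid cells of the meninges and perivascular spaces, had pooled levels of 342 CPM (fl EAE) and 221.5 CPM (NestinCre EAE) for Calm2 and 910.2 and 1239 CPM for Camk2d, and their markers summed to 180.5 CPM (111.8 to 257.5) in fl EAE and 265 CPM (132 to 442) in NestinCre EAE microglia. The part of infiltrating phagocytes, border macrophages, dividing cells and RNA of other classes in the microglia results was not tested.

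The microglia class consisted of 2 clusters, and both gave non-overlapping groups for both called genes. The clusters are parts of the class in which these genes were called, in the same samples. Their values are thus a description and not a second check, and no share over all genes stands beside them. In the larger one, which held 56.5 to 67.8% of fl EAE and 48.8 to 71.8% of NestinCre EAE microglia, Calm2 was at 465 to 567 CPM in fl EAE and 328 to 393 CPM in NestinCre EAE samples, and Camk2d at 599 to 937 and 1079 to 1480 CPM. In the smaller one Calm2 was at 542 to 1042 and 410.0 to 540.4 CPM, with 540.4 and 541.6 CPM as the nearest values, and Camk2d at 521 to 919 and 927 to 1136 CPM. Camk1d did not overlap between the groups in the larger cluster (1637 to 2084 and 2353 to 2486 CPM) and overlapped in the smaller one (1250.0 to 1822 and 1572 to 2015 CPM).

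**Figure D4:**
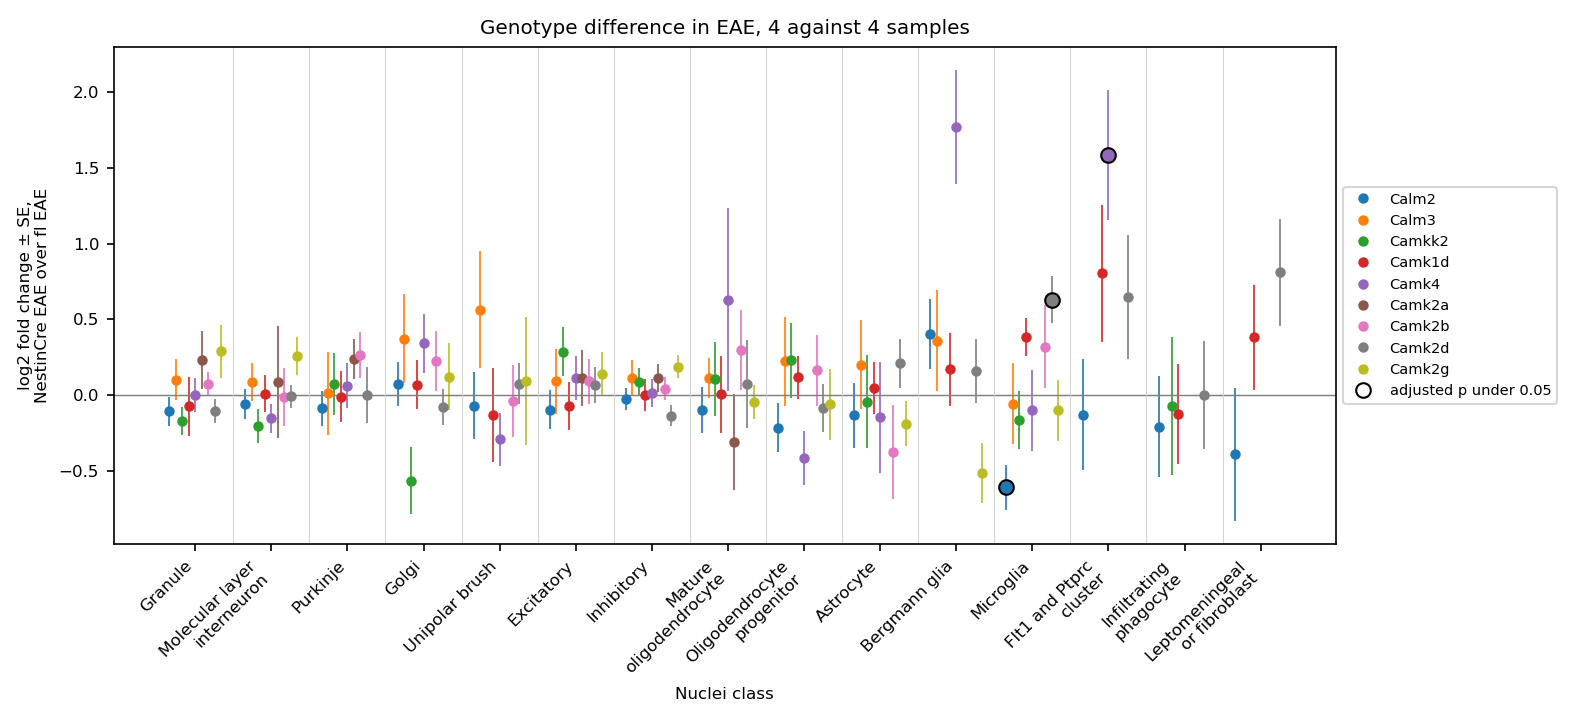
Log2 fold change of NestinCre EAE over fl EAE (y axis, bars are SE, 4 against 4 samples) for the members tested in each of 15 classes (x axis). Black rings mark the 3 pairs with an adjusted p under 0.05, Calm2 and Camk2d in microglia and Camk4 in the Flt1 and Ptprc cluster.

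Of the 109 pairs, 65 had a fold change above 0 and 44 below, with a median log2 fold change of 0.06 beside 0.00041 over all pairs tested, and 10 had an unadjusted p under 0.05, beside 7.59% of all pairs. Every NestinCre EAE sample lay above every fl EAE sample in 3 member pairs (2.5% of all pairs): Camk1d and Camk2d in microglia and Camk4 in Bergmann glia. Every one lay below in 3 (2.08% of all pairs): Calm2 in microglia, Camk2g in Bergmann glia and Camkk2 in molecular layer interneurons. The direction of Calm3 was above 0 in 11 of its 12 classes and that of Calm2 below 0 in 13 of its 15, with no call of either outside microglia. The classes come from the same libraries, so these signs are not independent, and no share over all genes stands beside them.

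In the Flt1 and Ptprc cluster, where 217 of 1745 genes were called (12.4%), Camk4 was at 159, 90.4, 285 and 39.3 CPM in fl EAE and 428, 492, 436 and 274 CPM in NestinCre EAE samples. The groups overlapped, and the fl EAE values rest on 3, 3, 7 and 1 UMIs. The log2 fold change was 1.59 (SE 0.43, edgeR adjusted p = 0.0284), and the call was lost without fl EAE replicate 1 or 2 (adjusted p = 0.0685 and 0.133), with the replicate block (0.0632) and without the run term (0.0896), while without NestinCre EAE replicate 1, 2 or 3 the gene was below the filter on low counts. Passing the filter thus depended on the group where the gene is high, and these values are a description. In simulated data 0% of 2-fold changes were recovered in this cluster, and 100% of its calls were false. The cluster held 10 to 18 nuclei in each fl EAE sample and 60 to 175 in each NestinCre EAE sample. Its endothelial markers summed to 10070 CPM (4343 to 16460) in fl EAE and 2933 CPM (402 to 8412) in NestinCre EAE samples, its T or NK cell markers to 341.5 CPM (0 to 1223) and 1732 CPM (1385 to 2081), and its infiltrating phagocyte markers to 103 CPM (0 to 212) and 1143 CPM (212 to 1740). The granule markers there were at 26.0 and 26.4% of their granule cell level. Of 27 marker lists summed in this cluster, 4 did not overlap between the EAE groups, all higher in NestinCre EAE samples. They were those of T or NK cells, infiltrating phagocytes, Purkinje cells and ependymal cells. The Purkinje markers were at 376 CPM (314 to 452) in fl EAE and 779 CPM (575 to 906.5) in NestinCre EAE samples. The cells of this cluster thus differed between the groups, and their part in the Camk4 difference was not tested.

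In Bergmann glia, radial astrocytes that wrap Purkinje cell synapses, Camk4 was at 12.0, 22.6, 45.2 and 30.2 CPM in fl EAE and 75.0, 128, 74.4 and 104 CPM in NestinCre EAE samples. The log2 fold change was 1.77 (SE 0.38, edgeR adjusted p = 0.0652), and it rests on 32 and 49 UMIs. All 4 fl EAE samples were below the filter on low counts in this class and all 4 NestinCre EAE samples above it, so the pair was tested only through the group where it is high, and these values are a description. The granule markers in the same nuclei were at 421 CPM (333 to 498) and 498 CPM (372 to 620.1). Camk2g in Bergmann glia was at 606, 499.8, 403 and 499 CPM in fl EAE and 225, 383, 372 and 377 CPM in NestinCre EAE samples, with a log2 fold change of -0.51 (SE 0.20, adjusted p = 0.487). Camk2g in the Bergmann glia of the naive samples was at 443 and 489.9 CPM (fl) and 535 CPM (NestinCre), all within the fl EAE range. Camkk2 in molecular layer interneurons was at 42.0, 49.4, 44.7 and 46.5 CPM in fl EAE and 39.9, 40.6, 40.6 and 37.4 CPM in NestinCre EAE samples, with an adjusted p of 0.776.

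In granule cells, which had the most UMIs and where 1.44% of genes were called, no member was. Camk4 was at 1989, 1621, 1774 and 1800 CPM in NestinCre EAE samples, inside or close to the fl EAE range given above, with a log2 fold change of 0.00 (SE 0.11). Camkk2 had a log2 fold change of -0.17 (SE 0.09), Camk2d -0.10 (SE 0.08), Calm2 -0.11 (SE 0.09), Calm3 0.10 (SE 0.14), Camk2b 0.08 (SE 0.08), Camk1d -0.07 (SE 0.19), Camk2a 0.24 (SE 0.19) and Camk2g 0.29 (SE 0.18), with adjusted p of at least 0.738 for all of them.

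**Figure D5:**
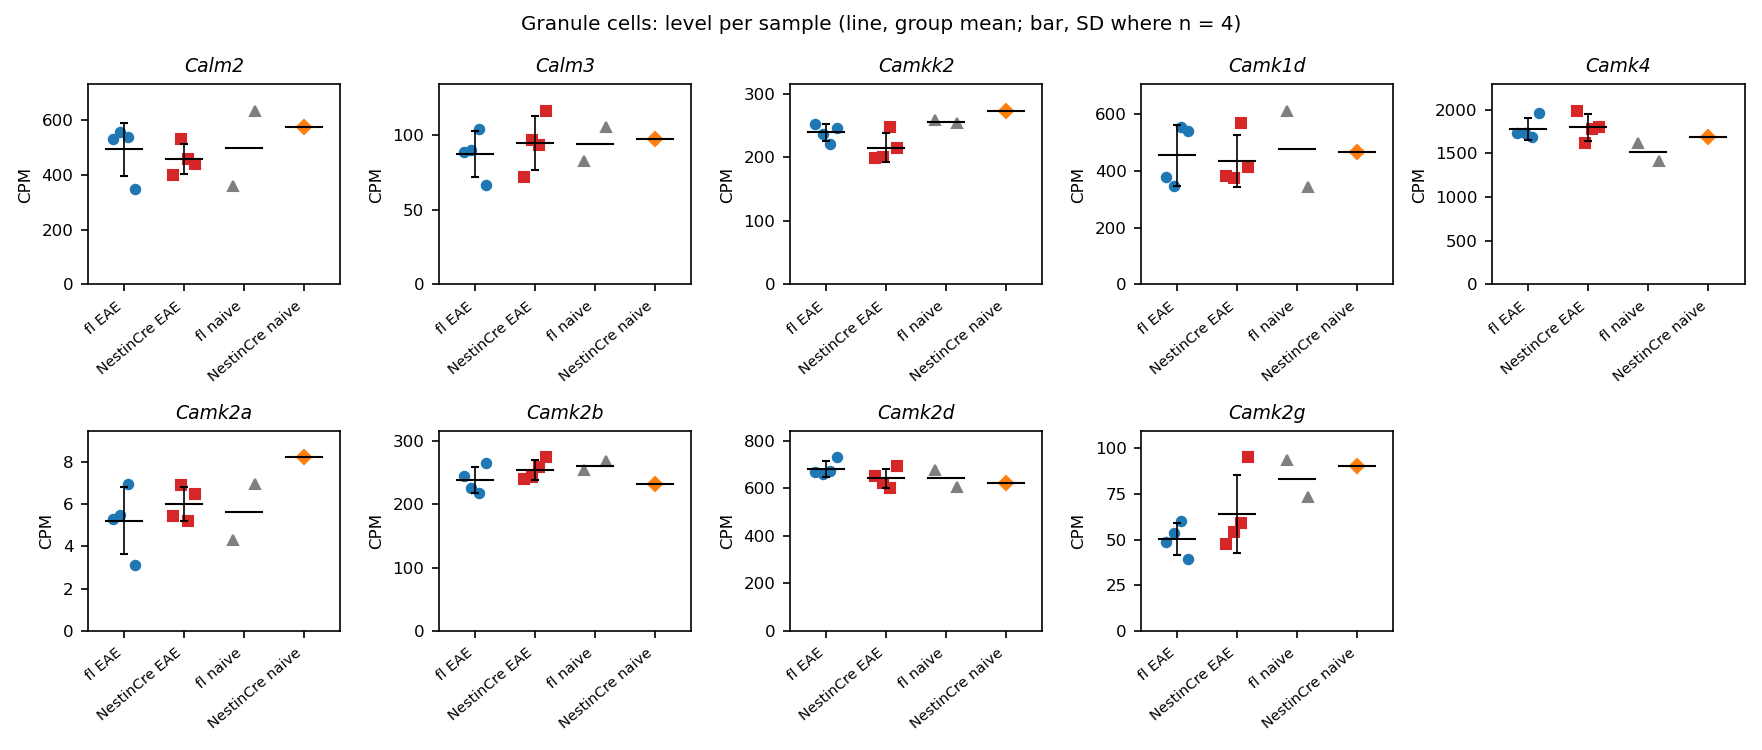
Level in granule cells (CPM) of the 9 members, 1 point per sample, in the 4 groups, with lines for group means and bars for the SD of the groups of 4. The EAE groups overlap for all 9 genes.

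Calm2 in granule cells was lower in the fl samples of run 2 than in those of runs 1 and 3. As run 2 holds 1 sample per group, run and sample cannot be told apart. In fl EAE samples it was at 533, 556 and 541 CPM in run 1 and 349 CPM in run 2, where the fl naive sample had 361 CPM. In NestinCre EAE samples the runs were not separate, with 402, 531 and 460 CPM in run 1 and 442 CPM in run 2. The run 3 samples had 636 (fl naive) and 576 CPM (NestinCre naive). The run was a term in the main edgeR fits.

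Shares within the calmodulin pair and the Camk2 family were compared between the EAE groups by an exact two-sided permutation test over the 70 assignments, whose smallest possible p is 0.0286. Of 75 shares, 5 reached that p, and none was below an adjusted p of 0.429. This test took no account of the run. Over the 40 assignments that keep the runs balanced, chosen after seeing the data, the smallest possible p is 0.05, which 6 shares reached, and the lowest adjusted p of that exact permutation test was 0.511. Camk2g was 9.58% of Camk2 UMIs in fl EAE and 6.11% in NestinCre EAE microglia, 57.0% and 44.4% in Bergmann glia, and 16.2% and 18.5% in inhibitory neurons. Camk2d was 69.8% and 66.5% in granule cells, and Calm2 was 85.0% and 77.0% of the calmodulin pair in unipolar brush cells. In microglia the Calm2 share was 88.8% ± 1.72 in fl EAE and 84.7% ± 2.77 in NestinCre EAE samples (exact permutation p = 0.0857).

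The effect of immunization in mice without Cre was read from fl EAE against fl naive samples in a fit of all 4 groups. None of 109 member pairs was called, with 7 at an unadjusted p under 0.05 (7.04% of all pairs were) and 0 calls by DESeq2, where 55 of 125719 pairs of all genes were called by edgeR (0.0437%). The lowest adjusted p, 0.321 by edgeR, was that of Camk2g in molecular layer interneurons, at 37.8, 47.5, 50.1 and 41.2 CPM in fl EAE and 81.3 and 78.9 CPM in fl naive samples, a log2 fold change of -0.87 (SE 0.20). Camk2g was below 0 in 11 of its 12 classes and Camk1d in 13 of 14. These classes share libraries, so the signs are not independent, and no share over all genes stands beside them. Between the naive genotypes, a contrast that rests on fl naive replicate 3 among the fl samples, Camk1d was above 0 in 14 of 14 classes. Only run 2 holds both immunized and naive mice. With the run term, the immunization fold changes therefore rest on fl naive replicate 2 alone among the naive samples.

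Between the genotypes without immunization, 0 of 109 member pairs were called, 2 had an unadjusted p under 0.05 (4.01% of all pairs did) and DESeq2 called 0, against 3 of 125719 (0.00239%) over all genes. The lone NestinCre naive sample was taken to vary like the other groups. With the run term, the naive genotype effect, here and in the interaction, compares that sample with fl naive replicate 3 of the same run. The other fl naive sample does not enter its fold changes. Camk2a in inhibitory neurons came lowest, with 82.3 CPM in the NestinCre and 118 and 142 CPM in the fl samples (log2 fold change -0.72, SE 0.19, edgeR adjusted p = 0.431). The difference between the genotype effects in EAE and in naive mice was called for 0 of 109 member pairs, with 6 at an unadjusted p under 0.05 (4.83% of all pairs were) and 0 by DESeq2, and for 1 of 125719 (0.000795%) over all genes. For the genes called in microglia this interaction was 0.79 for Camk2d (SE 0.36, adjusted p = 0.701) and -0.64 for Calm2 (SE 0.34, adjusted p = 0.792), so that a difference of the EAE and naive effects was not shown.

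Other genes of the pathway were read from lists in the same fit of NestinCre EAE against fl EAE samples. No pair was called among kinase inhibitors and phosphatases (0 of 38), calcineurin subunits and regulators (0 of 86), other calmodulin-dependent enzymes (0 of 115) or plasma membrane calcium pumps (0 of 40). Of 32 pairs of small proteins that bind and buffer calmodulin, 1 was called, in microglia, where 5.54% of all genes were. This was Gap43, a growth cone protein, lower in NestinCre EAE microglia at 35.3 ± 3.78 CPM against 68.7 ± 23.5 CPM (log2 fold change -1.02, SE 0.27, edgeR adjusted p = 0.0302). This call was lost without fl EAE replicate 2 or 3 (adjusted p = 0.0579 and 0.216) or NestinCre EAE replicate 1 or 3 (0.0787 and 0.0926), and DESeq2 gave an adjusted p of 0.111.

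Of 163 pairs of transcription factors downstream of the kinases or bound by calmodulin, 2 were called. Mef2c, a factor expressed in both microglia and neurons, was called in microglia, again beside 5.54% of all genes there. It was at 2290 ± 309.7 CPM in fl EAE and 1631 ± 287 CPM in NestinCre EAE microglia, a log2 fold change of -0.50 (SE 0.14, adjusted p = 0.0331). This call was lost without fl EAE replicate 1, 2 or 4 (adjusted p = 0.102, 0.182 and 0.0789) or NestinCre EAE replicate 1, 2 or 4 (0.0979, 0.106 and 0.0734), in run 1 alone (0.0775), with no filter (0.0681) and with doublets kept (0.0541). The fits without either replicate 4 and in run 1 alone rest on the same run 1 samples. Nfatc3, a factor that calcineurin activates, was called in the Flt1 and Ptprc cluster beside 12.4% of all genes there, at 78.9 ± 56.8 CPM in fl EAE (8 UMIs) and 265 ± 54.9 CPM in NestinCre EAE samples (log2 fold change 1.75, SE 0.45, adjusted p = 0.0236). This call was lost without fl EAE replicate 1 or 2 (0.0683 and 0.117), with the replicate block (0.0571), without the run term (0.0571) and among nuclei under 6000 UMIs (0.117), and without any 1 NestinCre EAE sample the gene was below the filter. Nfatc3 was thus tested through the group where it is high, and its values are a description. Of 29 pairs of genes induced by calcium and neuronal activity, 3 were called, all higher in NestinCre EAE samples, 2 in molecular layer interneurons, where 0.191% of all genes were called, and 1 in granule cells, where 1.44% were. Egr1, an immediate early transcription factor, rose in molecular layer interneurons from 8.61 ± 2.00 to 31.4 ± 15.9 CPM (log2 fold change 1.73, SE 0.27, adjusted p = 0.00706) and in granule cells from 12.4 ± 1.47 to 19.8 ± 4.17 CPM (0.65, SE 0.11, adjusted p = 0.0318). Junb, a subunit of the AP-1 factor, rose in molecular layer interneurons from 10.6 ± 6.30 to 32.4 ± 14.0 CPM (1.53, SE 0.29, adjusted p = 0.0464). The Egr1 range in these interneurons was 6.85 to 10.9 CPM in fl EAE and 10.2 to 48.2 CPM in NestinCre EAE samples, and that of Junb was 5.41 to 19.7 and 11.5 to 41.2 CPM, so both overlapped. The Egr1 call in granule cells was lost without fl EAE replicate 1 or 2 (adjusted p = 0.117 and 0.124) or NestinCre EAE replicate 1, 2 or 3 (0.0806, 0.072 and 0.0549), and without the run term (0.0665). The Junb call was lost without fl EAE replicate 2 or 3 (0.225 and 0.0625) or NestinCre EAE replicate 1, 2 or 3 (0.0797, 0.147 and 0.0993), and without the run term (0.185). The Egr1 call in molecular layer interneurons was lost without the run term (adjusted p = 0.0705) and kept under the other alternatives run. None of the listed genes was called in the other 3 comparisons.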

How the data were processed

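The deposited matrices held whole-number UMI counts per gene and nucleus, which the authors made from 10x Genomics libraries with Cell Ranger on GRCm39 (6.0.2 in the submitters' processing notes and in the headers of runs 2 and 3, 7.0.0 in the headers of run 1), with intronic reads counted according to the study's methods. Chromosome names and coordinates of that build were taken from GENCODE vM39.

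Nuclei with at least 200 genes (run 1) or 500 genes (runs 2 and 3) and under 5% mitochondrial UMIs were kept (188089 of 189709 barcodes). No doublets were excluded during sorting. Scrublet in scanpy 1.11.5 marked 26602 nuclei at a rate set by the number of barcodes in each sample, and 7453 more lay in clusters of over 40% marked nuclei; both were removed. The rest were clustered on 3000 variable genes and 40 components after Harmony correction by sample (Leiden, resolution 2 and then 6), giving 90 clusters, of which 52 were named from marker lists into 19 classes. The naming rule was adjusted after the leading genes of clusters had been seen, not after any comparison.

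UMIs were summed per sample and class. Genes passing filterByExpr were tested with edgeR 4.0.16 (TMM, quasi-likelihood, sequencing run as a term, Benjamini-Hochberg adjustment over all genes of a class, threshold 0.05) in R 4.3.3, the genotype in EAE on the 8 EAE samples and the other contrasts on all 11. Classes with at least 10 nuclei in each sample of a fit were tested. Of the 135 pairs of 9 members and 15 classes, those not tested between the EAE groups were below the filter. Scripts were tested on simulated data. No value was imputed. Text values follow a rule: the members in every class, Il12rb2, pathway lists as counts with the called genes named, and the 2 genes most alike per member. Some listed genes are not reported here. The members and lists were chosen with earlier results of these data known. The study gives 4 mice per genotype in EAE, and each sample was treated as 1 mouse. No 2 samples were duplicates (chi-square over degrees of freedom of at least 4.8 for pairs within a group). Alternatives were DESeq2 1.42.0, other size factors, no filter, a replicate block, no run term, run 1 alone, doublets kept, nuclei under 6000 UMIs, each sample left out and, chosen after seeing the data, leaving out a shallow granule cluster, class levels without fl EAE replicate 4, and permutation within runs.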

Additional observations from a re-analysis of the deposited data

Results flagged for a closer look

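In 32 groups of 4 samples tested for a value far from the others by Dixon's ratio at its 95% level, 3 values stood apart, where chance gives about 1 in 20 groups. Calm2 in granule cells was at 349 CPM in fl EAE replicate 4, below the other fl EAE samples (533 to 556 CPM). Camk2d in granule cells was at 731 CPM in the same sample, above the others (660.2 to 671 CPM). That sample was the fl EAE sample of run 2. Camk2g in Bergmann glia was at 225 CPM in NestinCre EAE replicate 1, below the others (372 to 383 CPM).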

How the results depend on the processing

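Without a filter beyond 1 UMI, 2734 gene and class pairs were called between the EAE genotypes instead of 1012, 5 member pairs instead of 3 (Camk4 in Bergmann glia and Camk1d in microglia were added, with adjusted p = 0.00576 and 0.0369), and 1 instead of 0 in each of the other 3 comparisons. These were Camk2g in molecular layer interneurons for fl EAE against fl naive (log2 fold change -0.85, adjusted p = 0.013) and Camk2a in inhibitory neurons for the naive genotypes (-0.70, 0.0494) and the interaction (0.80, 0.0431). Leaving out 1 EAE sample at a time gave 507 to 1491 pairs over all genes and 0 to 4 member pairs, with 0 without fl EAE replicate 1 or 2 and 1 without NestinCre EAE replicate 1. Camk4 in Bergmann glia was called without fl EAE replicate 3 (log2 fold change 2.06, adjusted p = 0.0451) and without NestinCre EAE replicate 3 (1.85, 0.0444), a pair that, with all samples, passed the filter on low counts only through the NestinCre group. No share passed the adjusted test under the alternatives, some of which are too small to pass it. The highest class of each of the 9 members stayed first with doublets kept, among nuclei under 6000 UMIs and without fl EAE replicate 4, where Camk2b in Purkinje cells moved from the second to the third class.

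Whether the replicate numbers pair the samples was not settled. Same-numbered EAE samples had correlations of deviations of -0.27, 0.59, -0.13 and -0.21, but these mix 2 runs and so cannot exclude pairing. In run 1 alone replicates 1, 2 and 3 had 0.25, 0.05 and 0.01. Not every sample correlated best with its own number. With a replicate block in place of the run term 669 pairs over all genes and 2 member pairs were called, and Camk4 in the Flt1 and Ptprc cluster, Nfatc3, Gap43, Mef2c, Junb and the granule call of Egr1 were not (adjusted p = 0.0632, 0.0571, 0.0642, 0.0514, 0.097 and 0.0908).

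Of 354 values under alternatives, 283 kept their direction and side of the threshold and 18 changed sign, all of uncalled members in granule cells, and the cause was not tested. Calm3 was at -0.0789 in run 1 alone and at -0.0788 to 0.2129 with 1 sample left out. Camk1d was at 0.0829 in run 1 alone and at -0.2466 to 0.0895 with 1 left out. Camk4, at 0.0024, was at -0.0009 with DESeq2, -0.0009 with RLE size factors, -0.0055 without the filter, -0.0045 with the replicate block, -0.0059 without the run term, -0.0017 with doublets kept, -0.0027 without the shallow granule cluster, and at -0.0888 to 0.1036 with 1 left out. Without fl naive replicate 2 the EAE effect, and without fl naive replicate 3 or NestinCre naive replicate 2 the naive genotype effect and the interaction, could not be estimated.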
